A study of Mus musculus with 11 samples.

Results

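Transcripts of the nuclear-encoded subunits of oxidative phosphorylation were measured in mouse liver. They were the genes whose array symbol begins with Nduf followed by a, b, c, s or v, with Uqcr, with Atp5 or with Cox4 to Cox8, or is Sdha, Sdhb, Sdhc or Sdhd. Each had to be detected (p under 0.05) on 2 arrays or more, and its brightest probe stood for it. Of 81 matching symbols 74 met this filter, out of 15469 genes tested in all. Of these 74 genes, 68 encode subunits: 34 of complex I, 3 of complex II, 6 of complex III, 11 of complex IV and 14 of complex V. The other 6 (Atp5s, Atp5sl, Cox4nb, Cox7a2l, Ndufa12l and Ndufaf1) share the names without being structural subunits of these complexes, and are described apart. Ndufa4 is counted with complex I by its name, although its protein is now assigned to complex IV.

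Complex I (NADH dehydrogenase) and complex II (succinate dehydrogenase) pass electrons from NADH and succinate to ubiquinone. Complex III (the cytochrome bc1 complex) hands them on to cytochrome c, and complex IV (cytochrome c oxidase) to oxygen. Complexes I, III and IV pump protons across the inner mitochondrial membrane, and complex V (ATP synthase) makes ATP from their return. Hepatocytes are rich in mitochondria and use this chain to draw energy from fatty acids. Most subunits are encoded in the nucleus, and several complex IV subunits come as pairs of isoforms used in different tissues.

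All mice were male C57BL/6J, with an age of 8 weeks in the labels. Each carried an adenovirus that expressed a form of FXR, the nuclear receptor for bile acids, and was given the synthetic FXR agonist GW4064 in corn oil (30 mg/kg) a week later, the night before the liver was taken. The groups were obese mice with FXR-K217R (3 arrays), obese mice with FXR-WT (3 arrays), lean mice with FXR-K217Q (3 arrays) and lean mice with FXR-WT (2 arrays). Their sample titles begin with HFD in both obese groups and with ND in both lean groups, letters that the labels do not spell out. What these letters stand for cannot be told apart from obesity in these data. In K217Q a glutamine, which resembles acetylated lysine, stands in for a lysine, and in K217R an arginine that cannot be acetylated does. No label reports loss of the receptor encoded by the mice themselves, and groups without virus or without agonist were not analysed here. Whether replicates are separate animals is not given in the labels, and p-values therefore reflect no more than the spread between these samples. In whole liver, fewer cells of a type and less RNA per cell cannot be told apart.

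Of 45281 probes, 18656 to 19500 were detected on obese FXR-K217R, 18919 to 19414 on obese FXR-WT, 18263 to 18759 on lean FXR-K217Q and 19069 to 19425 on lean FXR-WT arrays, so that both lean groups did not overlap. The part of this in the FXR-K217Q comparison was not tested. A probe was read from a mean of 41.9 to 44.0 beads. Whether the number of beads or that of arrays limits the precision was not tested. Hepatocyte markers (8 of 8 tested, 6 of them detected on every array) had a summed level, set mostly by the brightest of them and given as log2, of 17.04 to 17.08 in obese FXR-K217R, 17.01 to 17.07 in obese FXR-WT, 17.02 to 17.09 in lean FXR-K217Q and 17.06 to 17.08 in lean FXR-WT livers. Among them Tat, detected on 1 of 3 obese FXR-WT arrays and on both lean FXR-WT arrays, fell in obese livers in limma (adjusted p = 0.0288), and Fgb differed by -0.62 (adjusted p = 0.724).

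Obese FXR-WT replicate 1 and lean FXR-K217Q replicate 3 stood apart. Their highest correlations across genes with any other array were 0.987 and 0.988, against 0.991 to 0.992 for the other 9. Their levels of the clock gene Dbp were 10.74 and 10.45, and those of the clock gene Arntl 7.49 and 8.09. Both lean FXR-WT arrays lay near them, with Dbp at 11.32 and 11.71 and Arntl at 7.62 and 7.63. The remaining 7 arrays had Dbp at 12.67 to 13.27 and Arntl at 5.74 to 6.55. Clock transcripts thus moved with the lean FXR-WT group, which enters 2 comparisons, and their part in the results was not tested.

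No oxidative phosphorylation gene passed a false discovery rate (FDR) of 5% in any comparison. In limma, 0 of 74 passed for FXR-K217Q against FXR-WT in lean livers, where 0% of all genes passed. Likewise 0 of 74 passed for FXR-K217R against FXR-WT in obese livers, against 0.0388% of all genes, and 0 of 74 for obese against lean livers with FXR-WT, against 1.2% of all genes. The test of the difference between both mutant effects gave 0 of 74 members and 0% of all genes, and the F test for any difference among the 4 groups gave 0 of 74 and 1.31%. At an unadjusted p under 0.05 there were 2 members for FXR-K217Q (7.2% of all genes, 2.7% of members), 0 for FXR-K217R (4.41% of all genes) and 3 for obesity (13.5% of all genes, 4.05% of members). The difference of mutant effects gave 0 members (4.71% of all genes) and the F test 4 (15.4% of all genes, 5.41% of members). The comparisons share arrays: lean FXR-WT enters both the FXR-K217Q and the obesity comparison, and obese FXR-WT both the FXR-K217R and the obesity comparison.

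**Figure D1:**
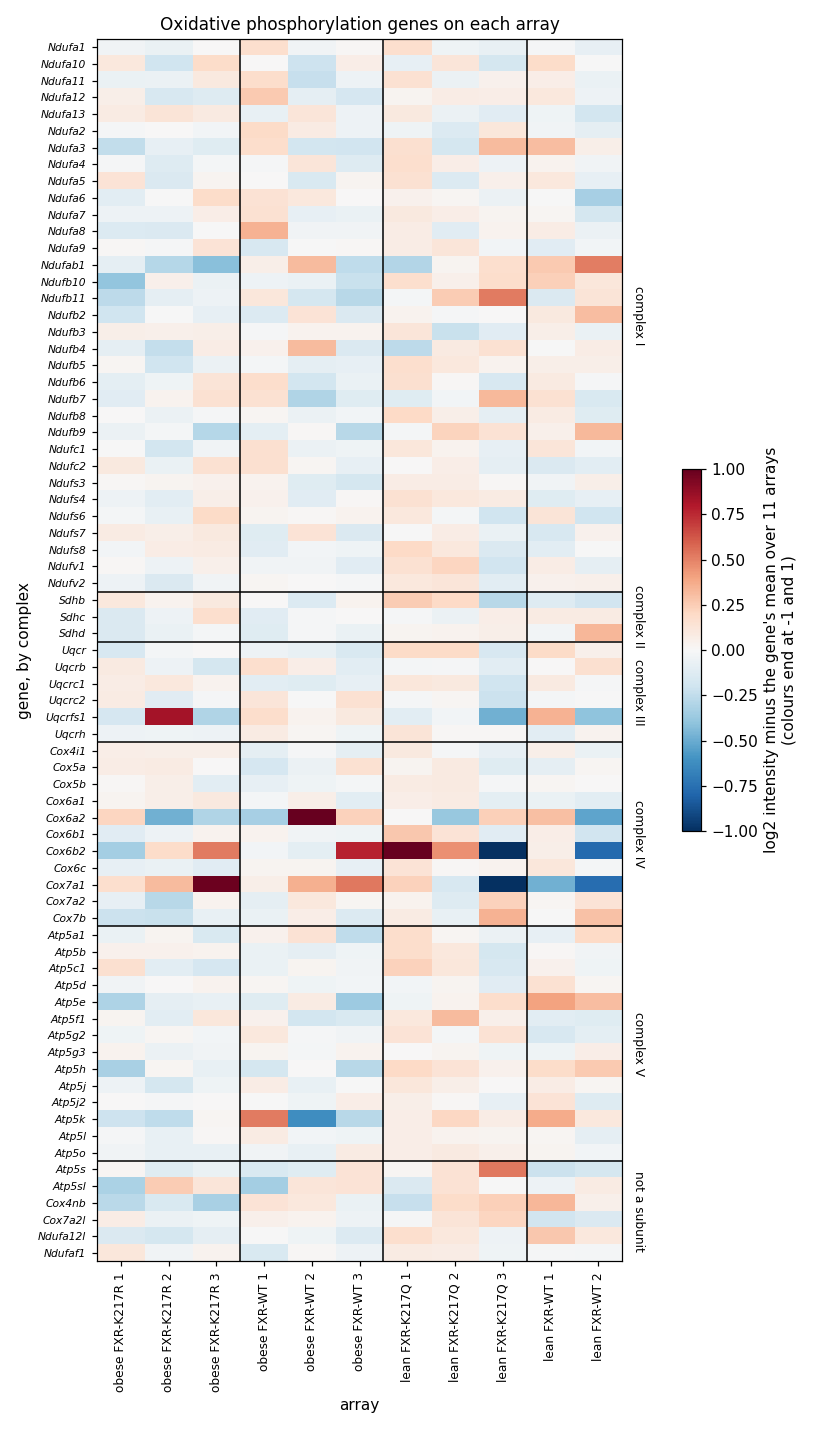
Each row is 1 of 73 genes, ordered by complex, each column an array, and the colour gives the log2 intensity minus the mean of that gene over 11 arrays (colours end at -1 and 1). Most rows are pale on every array, while Cox6b2, Cox7a1, Cox6a2, Uqcrfs1 and Atp5k, whose values span more than 1 log2 unit, stand out.

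Values were close to each other across the 11 arrays. The highest and lowest array differed by less than 0.5 log2 units for 50 of 74 genes (67.6%), against 21.6% of all genes tested. The median of that range was 0.37 for oxidative phosphorylation genes and 0.75 for all genes. Only 5 genes (Cox6b2, Cox6a2, Cox7a1, Uqcrfs1 and Atp5k) spanned more than 1 log2 unit, or 6.76%, against 25.7% of all genes. Between replicates of a group the median SD was 0.112 log2 units, against 0.213 for all genes, and 67 of the 74 lay under that of all genes.

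The comparison of spread depended on brightness and on background correction. Among genes with a mean log2 intensity of 10 or more, the 59 oxidative phosphorylation genes had a median SD of 0.0992 and all 3543 such genes 0.138. Of those 3543 genes, 49.0% spanned less than 0.5. Without background correction the median SD was 0.106 for oxidative phosphorylation genes and 0.109 for all genes. The standard error over the beads of a probe was alike as well, with a median of 0.0507 log2 units against 0.0525 for all genes.

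By complex the median SD was 0.0931 for complex V, 0.106 for complex II, 0.108 for complex III, 0.122 for complex I and 0.133 for complex IV. This order depended on brightness. Among genes with a mean log2 intensity of 10 or more, the median SD was lowest for complex IV (0.072, 7 genes) and complex V (0.0761, 12 genes). For such genes it was 0.0988 for complex III (4 genes), 0.106 for complex II (3 genes) and 0.107 for complex I (30 genes). The smallest SDs belonged to Atp5g3 (0.0461), 1 of the genes for the c ring of ATP synthase, Atp5o (0.0487), the OSCP subunit of its peripheral stalk, and Atp5l (0.0542), its membrane subunit g. Cox5b (0.0570), a complex IV subunit on the matrix side, and Atp5d (0.0578), the delta subunit of the ATP synthase central stalk, came next. The mean of Atp5g3 over the 11 arrays, 15.05, lay near the highest of all genes tested, 15.19, and whether the scale is compressed there was not tested. Atp5g3 averaged 15.03 ± 0.05 (SD, n = 3) in FXR-K217R and 15.06 ± 0.03 (SD, n = 3) in FXR-WT livers of obese mice. In lean livers it averaged 15.04 ± 0.03 (SD, n = 3) with FXR-K217Q and 15.06 ± 0.08 (SD, n = 2) with FXR-WT, and all 3 differences lay between -0.03 and 0.01. Atp5o read 13.97, 13.93 and 13.93 in obese FXR-K217R, 13.97, 13.93 and 14.09 in obese FXR-WT, 14.07, 14.09 and 14.06 in lean FXR-K217Q and 14.03 and 13.98 in lean FXR-WT livers. All 11 values lay within 0.16 of each other, although both lean groups did not overlap. The largest SDs were those of Cox6b2 (0.926), Cox6a2 (0.497), Cox7a1 (0.490), Uqcrfs1 (0.409) and Atp5k (0.333). Without lean FXR-K217Q replicate 3 they were 0.481 for Cox6b2 and 0.317 for Cox7a1, and without obese FXR-WT replicate 1 the SD of Atp5k was 0.160. Of these genes, Cox6a2 was detected on 6 arrays and Uqcrfs1 on 2, so their values lie largely in the background.

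**Figure D2:**
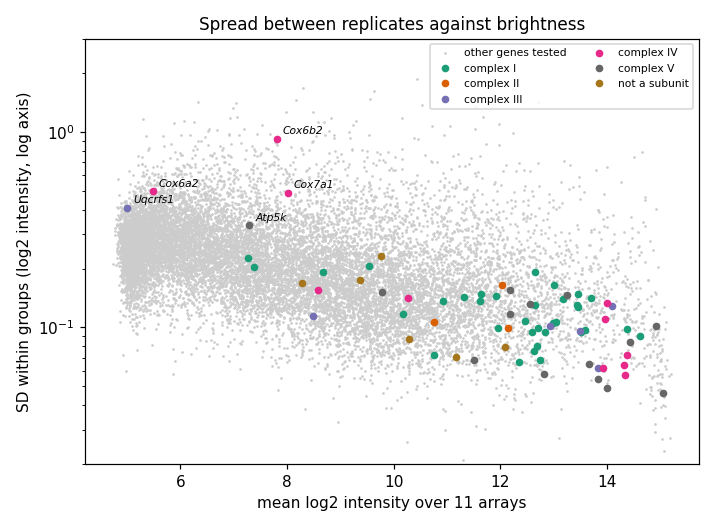
The SD between replicates within groups (log2 units, log axis) is plotted against the mean log2 intensity over 11 arrays for each gene, with oxidative phosphorylation genes coloured by complex over all other genes in grey. Dim genes spread more, and 67 of the 74 coloured points lie under the median SD of all genes (0.213).

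In complex I, none of the 34 genes spanned more than 1 log2 unit. The catalytic core includes Ndufs3, Ndufs7, Ndufs8, Ndufv1 and Ndufv2. Ndufs1, the 75-kDa core subunit, was detected on 0 arrays and not tested. Ndufs7, an iron-sulphur core subunit, differed by 0.12 (95% CI -0.13 to 0.38) between FXR-K217R and FXR-WT livers of obese mice.

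Ndufab1, the mitochondrial acyl carrier protein that is also a complex I subunit, had the lowest values of the complex relative to FXR-WT. It read 7.18, 6.98 and 6.85 in obese FXR-K217R, 7.33, 7.58 and 7.01 in obese FXR-WT, 6.97, 7.29 and 7.43 in lean FXR-K217Q and 7.53 and 7.77 in lean FXR-WT livers. Both lean FXR-WT arrays lay above all 3 lean FXR-K217Q arrays, while the groups overlapped in the other 2 comparisons. The difference was -0.42 for FXR-K217Q (95% CI -0.85 to 0.02, limma adjusted p = 0.701), -0.30 for FXR-K217R (95% CI -0.69 to 0.09, adjusted p = 0.993) and -0.34 for obesity (95% CI -0.78 to 0.09, adjusted p = 0.49). Its F test gave an adjusted p of 0.323.

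Accessory subunits of complex I varied by similar amounts. Ndufb11, a membrane-arm subunit, read 7.36, 7.63 and 7.90 in lean FXR-K217Q and 7.24 and 7.51 in lean FXR-WT livers, a difference of 0.26 (95% CI -0.14 to 0.66) with overlapping groups, or 0.13 without FXR-K217Q replicate 3. Ndufb2 differed by -0.20 and Ndufa10 by -0.14 in that comparison, with adjusted p of 0.818 and 0.915 in limma, and Ndufa10 by -0.07 without that replicate. Ndufb9 read 11.54, 11.66 and 11.37 in obese FXR-WT and 11.70 and 11.97 in lean FXR-WT livers, so that the groups did not overlap, and its difference of -0.31 (95% CI -0.64 to 0.02) had an adjusted p of 0.408 in limma. Ndufa6, another accessory subunit, differed by 0.25 (95% CI -0.05 to 0.56) between the same livers, and by 0.09 to 0.42 with either lean FXR-WT array left out. Ndufa8 (-0.19) and Ndufb4 (-0.16) had the lowest values after Ndufab1 among complex I subunits for FXR-K217R, and that of Ndufa8 was -0.06 without obese FXR-WT replicate 1.

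Complex II was measured through Sdhb, its iron-sulphur subunit, and the membrane anchors Sdhc and Sdhd. Sdha, the flavoprotein, was detected on 1 array at most and not tested. Lack of a transcript and a probe that fails to report it cannot be told apart here, for Sdha as for Ndufs1. Sdhb read 12.14, 12.07 and 12.13 in obese FXR-K217R, 12.04, 11.90 and 12.07 in obese FXR-WT, 12.29, 12.24 and 11.76 in lean FXR-K217Q and 11.91 and 11.85 in lean FXR-WT livers. Lean FXR-K217Q replicate 3 lay below both lean FXR-WT arrays and replicates 1 and 2 above them. The difference was 0.22 for FXR-K217Q (95% CI -0.14 to 0.57), or 0.38 without that array, and 0.11 for FXR-K217R (95% CI -0.20 to 0.43). Sdhd read 10.64, 10.75 and 10.69 in obese FXR-WT and 10.73 and 11.09 in lean FXR-WT livers, with overlap and a difference of -0.22 (95% CI -0.50 to 0.07, limma adjusted p = 0.501).

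In complex III, Uqcrc1, the core protein 1, read 13.01, 13.05 and 12.98 in obese FXR-K217R and 12.83, 12.82 and 12.86 in obese FXR-WT livers. The groups did not overlap, with a difference of 0.18 (95% CI -0.07 to 0.43, limma adjusted p = 0.993). Its partner Uqcrc2, the core protein 2, lay the other way at -0.10 (95% CI -0.35 to 0.14). Uqcr, now Uqcr11, differed by -0.21 (95% CI -0.52 to 0.10) in obese against lean FXR-WT livers, and Uqcrb, a small subunit of the complex, by -0.13 (95% CI -0.42 to 0.16) for FXR-K217Q. The Rieske iron-sulphur protein Uqcrfs1 was detected on 1 obese FXR-K217R and 1 lean FXR-WT array only, so its differences lie in the background and none is described. Uqcrq was detected on 0 arrays, and whether its transcript or a working probe was lacking was not tested.

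In complex IV the widely expressed isoforms and the tissue-restricted isoforms differed in how even their values were. Cox4i1, the common form of subunit IV, read 14.39, 14.38 and 14.37 in obese FXR-K217R, 14.23, 14.31 and 14.22 in obese FXR-WT, 14.42, 14.31 and 14.23 in lean FXR-K217Q and 14.37 and 14.25 in lean FXR-WT livers. Both obese groups were apart, by 0.13 (95% CI -0.10 to 0.35, limma adjusted p = 0.993), while the lean groups overlapped. Cox6a1, Cox6b1 and Cox7a2, the forms used in liver, had SDs within groups of 0.072, 0.133 and 0.142. Their counterparts Cox6a2 and Cox7a1, known from heart and skeletal muscle, and Cox6b2, known from testis, had SDs of 0.497, 0.490 and 0.926. Without lean FXR-K217Q replicate 3 the SDs were 0.0535, 0.0972 and 0.122 for Cox6a1, Cox6b1 and Cox7a2, and 0.518, 0.317 and 0.481 for Cox6a2, Cox7a1 and Cox6b2. The mean log2 intensities of these 3 were 5.48, 8.01 and 7.81. Cox4i2, Cox7b2 and Cox8c were detected on 0 arrays and Cox8b on 1, while Cox8a, Atp5g1 and Ndufa4l2 were not analysed here.

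The 250 bases before the start site are shown for 5 genes, as examples of windows with and without matches to 2 motifs. They were chosen after their matches were seen. The sequences are those of RefSeq on GRCm38.p6, at chr5:115348959-115349208 (minus strand) for Cox6a1, chr7:30626115-30626364 (minus strand) for Cox6b1, chr11:115419920-115420169 (minus strand) for Atp5h, chr7:30183921-30184170 (plus strand) for Cox7a1 and chr7:4753095-4753344 (minus strand) for Cox6b2, each written 5′ to 3′ towards the gene. Capitals mark matches, on either strand, to the letters of the NRF1 site (GCGCA, any base, GCGC) and of the ETS site (CCGGAAG, which reads CTTCCGG on the other strand).
Cox6a1: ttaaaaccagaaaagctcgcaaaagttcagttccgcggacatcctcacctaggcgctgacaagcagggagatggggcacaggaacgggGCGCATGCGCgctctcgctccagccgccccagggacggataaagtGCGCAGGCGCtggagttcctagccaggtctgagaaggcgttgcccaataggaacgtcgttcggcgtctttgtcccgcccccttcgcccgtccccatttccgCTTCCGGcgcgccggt
Cox6b1: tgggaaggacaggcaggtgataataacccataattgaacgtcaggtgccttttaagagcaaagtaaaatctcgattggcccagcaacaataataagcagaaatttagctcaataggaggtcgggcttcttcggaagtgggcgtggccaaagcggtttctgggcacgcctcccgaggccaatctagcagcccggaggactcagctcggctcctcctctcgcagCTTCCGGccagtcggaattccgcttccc
Atp5h: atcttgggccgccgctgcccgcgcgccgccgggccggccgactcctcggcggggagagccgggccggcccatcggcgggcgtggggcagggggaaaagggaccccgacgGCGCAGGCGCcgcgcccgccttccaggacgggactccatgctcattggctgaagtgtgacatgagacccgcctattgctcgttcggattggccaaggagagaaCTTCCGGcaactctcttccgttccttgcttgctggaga
Cox7a1: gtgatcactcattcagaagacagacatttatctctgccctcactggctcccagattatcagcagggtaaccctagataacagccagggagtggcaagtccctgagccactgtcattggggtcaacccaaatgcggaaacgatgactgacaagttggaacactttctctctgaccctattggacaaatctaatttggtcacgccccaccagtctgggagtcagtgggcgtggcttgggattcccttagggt
Cox6b2: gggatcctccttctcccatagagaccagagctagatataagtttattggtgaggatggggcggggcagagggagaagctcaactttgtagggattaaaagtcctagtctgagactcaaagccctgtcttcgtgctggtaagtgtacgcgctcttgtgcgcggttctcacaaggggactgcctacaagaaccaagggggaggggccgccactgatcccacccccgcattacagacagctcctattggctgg
Cox6a1 and Atp5h held matches to both motifs and Cox6b1 to the ETS motif, while Cox7a1 and Cox6b2 held none. The windows of Cox7a2, the liver counterpart of Cox7a1, and of the even genes Atp5g3, Atp5o, Cox5b and Atp5d held none either. Atp5l, also an even gene, held the ETS motif, and Atp5k, among the genes with the largest SDs, held the NRF1 motif. A match of letters shows no binding, and its absence says only that these letters are not in this window. The windows of Cox7a1 and Cox6b2 had 4 and 8 CpG dinucleotides, against 26, 14 and 29 for Cox6a1, Cox6b1 and Atp5h.

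NRF1 and the ETS factor GABP are known regulators of nuclear genes for the respiratory chain. A promoter window was at hand for 63 of the 74 genes, 58 of them subunits, and 6 genes had several. The NRF1 motif was found for 11 of 58 subunit genes (19.0%), against 4.23% of 27025 genes, and the ETS motif for 12 (20.7%), against 7.83%. Complex I held 5 of the 11 genes with the NRF1 motif and complex V 4. The YY1 motif AAGATGGC was found for 1 of 58 (1.72%, against 1.83%) and TATAAA for 5 (8.62%, against 14.3%). Motifs were searched on both strands, and no overlap between motifs was removed. The windows of the 58 subunit genes, 63 in all since some genes had several, had a median GC content of 57.6% and 14 CpG. All windows had 52.4% and 6, so a GC-rich motif meets different base composition in the 2 sets.

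Cox7a1 had the largest difference of all 74 genes. It read 8.18, 8.33 and 8.995 in obese FXR-K217R, 8.07, 8.36 and 8.54 in obese FXR-WT, 8.24, 7.85 and 6.77 in lean FXR-K217Q and 7.53 and 7.25 in lean FXR-WT livers. All 3 obese FXR-WT arrays lay above both lean FXR-WT arrays, and lean FXR-K217Q replicate 3 was the lowest of the 11. Obese FXR-WT averaged 8.32 ± 0.24 (SD, n = 3) and lean FXR-WT 7.39 ± 0.20 (SD, n = 2). The level was 1.91-fold that in lean livers, a difference of 0.93 (SE 0.38, 95% CI 0.10 to 1.77), which did not pass in limma (adjusted p = 0.318). The difference was 0.18 for FXR-K217R (95% CI -0.57 to 0.93), -0.07 without obese FXR-K217R replicate 3 and 0.05 without obese FXR-WT replicate 1, and 0.23 for FXR-K217Q (95% CI -0.60 to 1.07).

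Since Cox7a1 is a muscle and brown fat form, markers of these tissues are given beside it. Of 5 skeletal muscle markers, Ckm, Myh4 and Tnnt3 were detected on 0 arrays. Acta1 differed by 1.28 (limma adjusted p = 0.291) and Mylpf by -0.13 in obese against lean FXR-WT livers. The summed level of Acta1 and Mylpf was 7.10 to 7.50 in obese FXR-WT and 6.20 to 6.66 in lean FXR-WT livers, and 7.42 to 9.02 in obese FXR-K217R and 5.76 to 6.68 in lean FXR-K217Q livers. Of 4 adipocyte markers, Ucp1 and Adipoq were detected on 0 arrays, while Cfd (adjusted p = 0.0193) and Cidea (adjusted p = 6.88e-05) rose in obese FXR-WT livers in limma. Their summed level was 10.74 to 11.17 in obese FXR-WT and 6.23 to 6.58 in lean FXR-WT livers, and 9.92 to 11.42 in obese FXR-K217R and 7.39 to 7.80 in lean FXR-K217Q livers. Whether muscle or fat cells were in these samples, or had a part in the Cox7a1 values, was not tested.

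Cox6b2 and Cox6a2 varied more between replicates than between groups. Cox6b2 read 7.47, 7.99 and 8.32 in obese FXR-K217R, 7.78, 7.71 and 8.57 in obese FXR-WT, 8.91, 8.26 and 5.96 in lean FXR-K217Q and 7.87 and 7.03 in lean FXR-WT livers. The highest and the lowest of the 11 values both came from lean FXR-K217Q livers, and its difference of 0.26 for FXR-K217Q (95% CI -1.28 to 1.80) turned to -0.34 without FXR-K217Q replicate 1 and was 1.14 without replicate 3. Between obese and lean FXR-WT livers it was 0.57 (95% CI -0.97 to 2.11). Cox6a2 read 5.70, 5.005 and 5.18 in obese FXR-K217R and 5.15, 6.51 and 5.71 in obese FXR-WT livers, where it was detected on 1 and 2 arrays. That difference of -0.50 (95% CI -1.25 to 0.26), or -0.82 without obese FXR-WT replicate 1 and -0.14 without replicate 2, lies within overlapping values near the background.

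**Figure D3:**
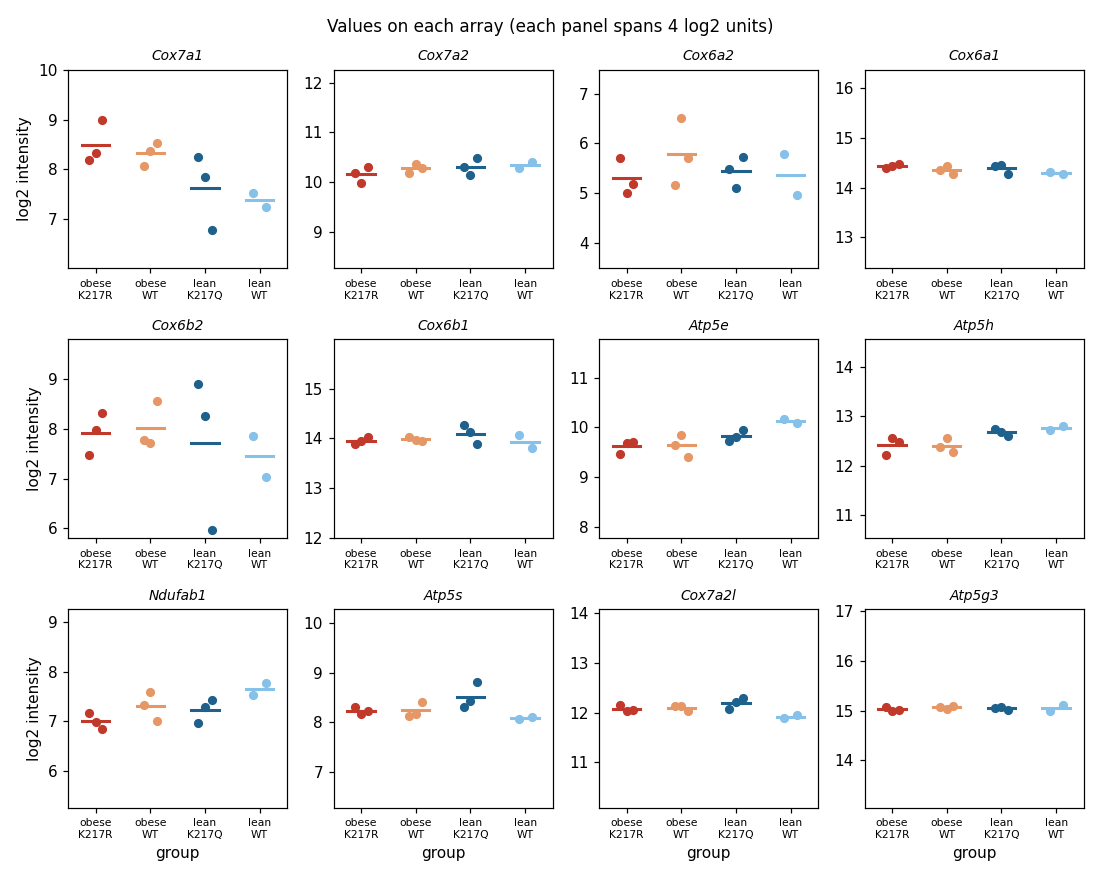
Points are the log2 intensities of single arrays in each of the 4 groups and bars the group means, for 12 genes, with 4 log2 units on each vertical axis. Cox7a1, Cox6a2 and Cox6b2 scatter widely beside Cox7a2, Cox6a1 and Cox6b1, and Atp5g3 is the flattest, with an SD within groups of 0.0461.

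In complex V the catalytic subunit beta, Atp5b, read 14.97, 14.97 and 14.96 in obese FXR-K217R and 14.86, 14.84 and 14.88 in obese FXR-WT livers. The groups did not overlap, yet differed by only 0.11 (95% CI -0.14 to 0.36, limma adjusted p = 0.993). Its partner alpha, Atp5a1, differed by -0.04 (95% CI -0.35 to 0.26). Atp5f1 (now Atp5pb), subunit b of the peripheral stalk, read 12.29, 12.50 and 12.23 in lean FXR-K217Q and 12.08 and 12.07 in lean FXR-WT livers, apart by 0.27 (95% CI -0.03 to 0.56, limma adjusted p = 0.733). Of its 3 other probes, 1 gave 0.28, and the others, with mean log2 intensities of 8.20 and 5.43, gave -0.02 and 0.03.

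Atp5e and Atp5h had the smallest p-values of the low side in obesity. Atp5e, the epsilon subunit of the central stalk, read 9.46, 9.68 and 9.70 in obese FXR-K217R, 9.65, 9.85 and 9.41 in obese FXR-WT, 9.74, 9.81 and 9.95 in lean FXR-K217Q and 10.18 and 10.08 in lean FXR-WT livers. Both lean FXR-WT arrays were above the other 9. Between obese and lean FXR-WT livers it differed by -0.49 (95% CI -0.83 to -0.16), which did not pass in limma (adjusted p = 0.177), and the range over single arrays left out was -0.60 to -0.38. For FXR-K217Q the difference was -0.30 (95% CI -0.63 to 0.04), and its F test gave the smallest p of the 74 genes (adjusted p = 0.257).

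Atp5h, subunit d of the peripheral stalk, read 12.23, 12.57 and 12.48 in obese FXR-K217R, 12.38, 12.55 and 12.27 in obese FXR-WT, 12.75, 12.69 and 12.59 in lean FXR-K217Q and 12.73 and 12.81 in lean FXR-WT livers. All 6 obese arrays lay below all 5 lean ones. Obese and lean FXR-WT livers differed by -0.37 (95% CI -0.68 to -0.06, limma adjusted p = 0.287). Atp5k, subunit e, read 7.81, 6.67 and 7.01 in obese FXR-WT and 7.66 and 7.39 in lean FXR-WT livers, a difference of -0.36 (95% CI -0.96 to 0.23) with overlap. Obese FXR-WT replicate 1 held the highest of its 11 values and replicate 2 the lowest, and the difference was -0.69 without replicate 1 and -0.12 without replicate 2.

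Both genes of the name list with an unadjusted p under 0.05 for FXR-K217Q were non-subunits. Atp5s (now Dmac2l), coupling factor B, read 8.30, 8.43 and 8.81 in lean FXR-K217Q and 8.07 and 8.10 in lean FXR-WT livers. The groups did not overlap, and the difference was 0.42 (95% CI 0.07 to 0.78, limma adjusted p = 0.584), or 0.28 without FXR-K217Q replicate 3. Cox7a2l has been described as joining complexes III and IV into supercomplexes, and whether it does so in these mice was not tested. It read 12.07, 12.21 and 12.30 in lean FXR-K217Q and 11.89 and 11.95 in lean FXR-WT livers. These were apart by 0.28 (95% CI 0.02 to 0.53, limma adjusted p = 0.643), and its other probe gave 0.22. The lean FXR-WT arrays of Cox7a2l lay below every other array, and obese against lean FXR-WT livers differed by 0.18 (0.23 from the other probe). In obese FXR-K217R livers both genes read near obese FXR-WT, with differences of -0.01 (95% CI -0.33 to 0.31) for Atp5s and -0.02 (95% CI -0.25 to 0.21) for Cox7a2l.

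Cox4nb (now Emc8), a subunit of the endoplasmic reticulum membrane complex, read 9.10, 9.21 and 9.05 in obese FXR-K217R and 9.51, 9.48 and 9.30 in obese FXR-WT livers. The groups did not overlap, with a difference of -0.31 (95% CI -0.63 to 0.02, limma adjusted p = 0.993), and its other probe gave -0.02. The complex I assembly factor Ndufa12l (now Ndufaf2) differed by -0.25 (95% CI -0.51 to 0.02) in obese against lean FXR-WT livers. Ndufaf1, also an assembly factor, had 3 differences between -0.04 and 0.10, and Atp5sl (now Dmac2), which serves assembly of the distal membrane arm of complex I, between -0.04 and 0.05.

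FXR-K217Q was set against FXR-WT in lean livers to ask what an acetylation mimic does without obesity. The 74 genes had a median difference of 0.03 (all genes -0.003), with 42 positive (56.8%, against 49.4% of all genes). The median was -0.0072 without lean FXR-K217Q replicate 1, and 0.10 (all genes 0.03) after scaling to the median of each array in place of quantile normalization. By complex the medians were 0.04 for complex I, -0.08 for complex II, -0.05 for complex III, 0.04 for complex IV and 0.00 for complex V. The groups did not overlap for 15 genes (20.3%), against 22.3% of all genes. Of these 10 were higher (13.5%, against 10.3%) and 5 lower (6.76%, against 12%). Among the higher were Ndufs4 (0.22, with -0.02, -0.03 and 0.11 from its other probes), an accessory subunit of complex I, and Atp5g2 (0.21), another c ring gene, and among the lower Sdhc (-0.08). The whole 95% confidence interval lay within 0.5 of 0 for 62 of 74 genes, against 36.1% of all genes. Brighter genes had it more often: it did so for 2276 of the 3543 genes with a mean log2 intensity of 10 or more. These 3543 include 59 of the 74. The interval lay within 1 of 0 for 72 of the 74, against 89.3%. The first count was 36 and 40 without lean FXR-WT replicate 1 or 2, since a single array then stood for that group. Of 6 neutrophil markers tested, 0 passed 5% FDR here. Mpo differed by -2.38 and Ltf by -2.26 (limma adjusted p = 0.149 for each), Camp by -1.57 and Ngp by -0.91. S100a8 differed by -0.16 and S100a9 by 0.19, and these brightest markers mostly set the summed level. That level was 11.32 to 12.01 in lean FXR-K217Q and 11.86 to 11.9999 in lean FXR-WT livers. The part of these markers in the values of oxidative phosphorylation genes was not tested.

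FXR-K217R was set against FXR-WT in obese livers to ask what blocking acetylation of the receptor at this lysine does in obesity. The median difference was -0.01 (all genes -0.005), with 33 of 74 positive (44.6%, against 48.8%), and 0.01 without obese FXR-K217R replicate 1 or without obese FXR-WT replicate 1. By complex it was -0.01 for complex I, 0.03 for complex II, -0.02 for complex III, -0.03 for complex IV and -0.02 for complex V. No gene differed by more than 0.5, against 3.56% of all genes. The groups did not overlap for 6 genes (8.11%), against 9.85% of all genes: Atp5b, Cox4i1, Ndufb3 and Uqcrc1 were higher (5.41%, against 4.31%), and Cox4nb and Ndufv2 lower (2.7%, against 5.55%). The interval lay within 0.5 of 0 for 66 genes, against 48.7% of all genes, and within 1 of 0 for 72, against 93.6%. Of the 3543 genes with a mean log2 intensity of 10 or more, it lay within 0.5 of 0 for 2684. Neutrophil markers, whose summed level was 10.53 to 11.37 in obese FXR-K217R and 13.29 to 13.72 in obese FXR-WT livers, moved with this comparison. All 6 markers tested fell in limma (adjusted p = 0.00162 to 0.0135), and they are the 6 genes past 5% FDR in it. Their part in the values of oxidative phosphorylation genes was not tested.

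Obese livers were set against lean livers, both with FXR-WT. The median difference was -0.03 (all genes -0.001), or 0.01 (all genes 0.04) after median scaling and -0.0019 without lean FXR-WT replicate 1, and 30 of 74 genes were positive (40.5%, against 49.9%). By complex it was -0.03 for complex I, -0.12 for complex II, 0.01 for complex III, 0.01 for complex IV and -0.04 for complex V. Only Cox7a1 and Cox6b2 differed by more than 0.5 (2.7%, against 11.2% of all genes). The groups did not overlap for 19 genes (25.7%), against 33% of all genes. Of these 6 were higher (8.11%, against 16.7%) and 13 lower (17.6%, against 16.2%). The interval lay within 0.5 of 0 for 55 genes, against 31.3% of all genes, and within 1 of 0 for 71, against 86%. Of the 3543 genes with a mean log2 intensity of 10 or more, it lay within 0.5 of 0 for 1971. Neutrophil markers had a summed level of 13.29 to 13.72 in obese FXR-WT and 11.86 to 11.9999 in lean FXR-WT livers, and Ltf, Ngp, Camp and S100a9, 4 of the 6 tested, rose in limma (adjusted p = 0.00463 to 0.0303). Erythroid markers, with 4 tested, stood at 15.08 to 15.95 in obese FXR-WT and 16.07 to 16.10 in lean FXR-WT livers. The part of either in these values was not tested.

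**Figure D4:**
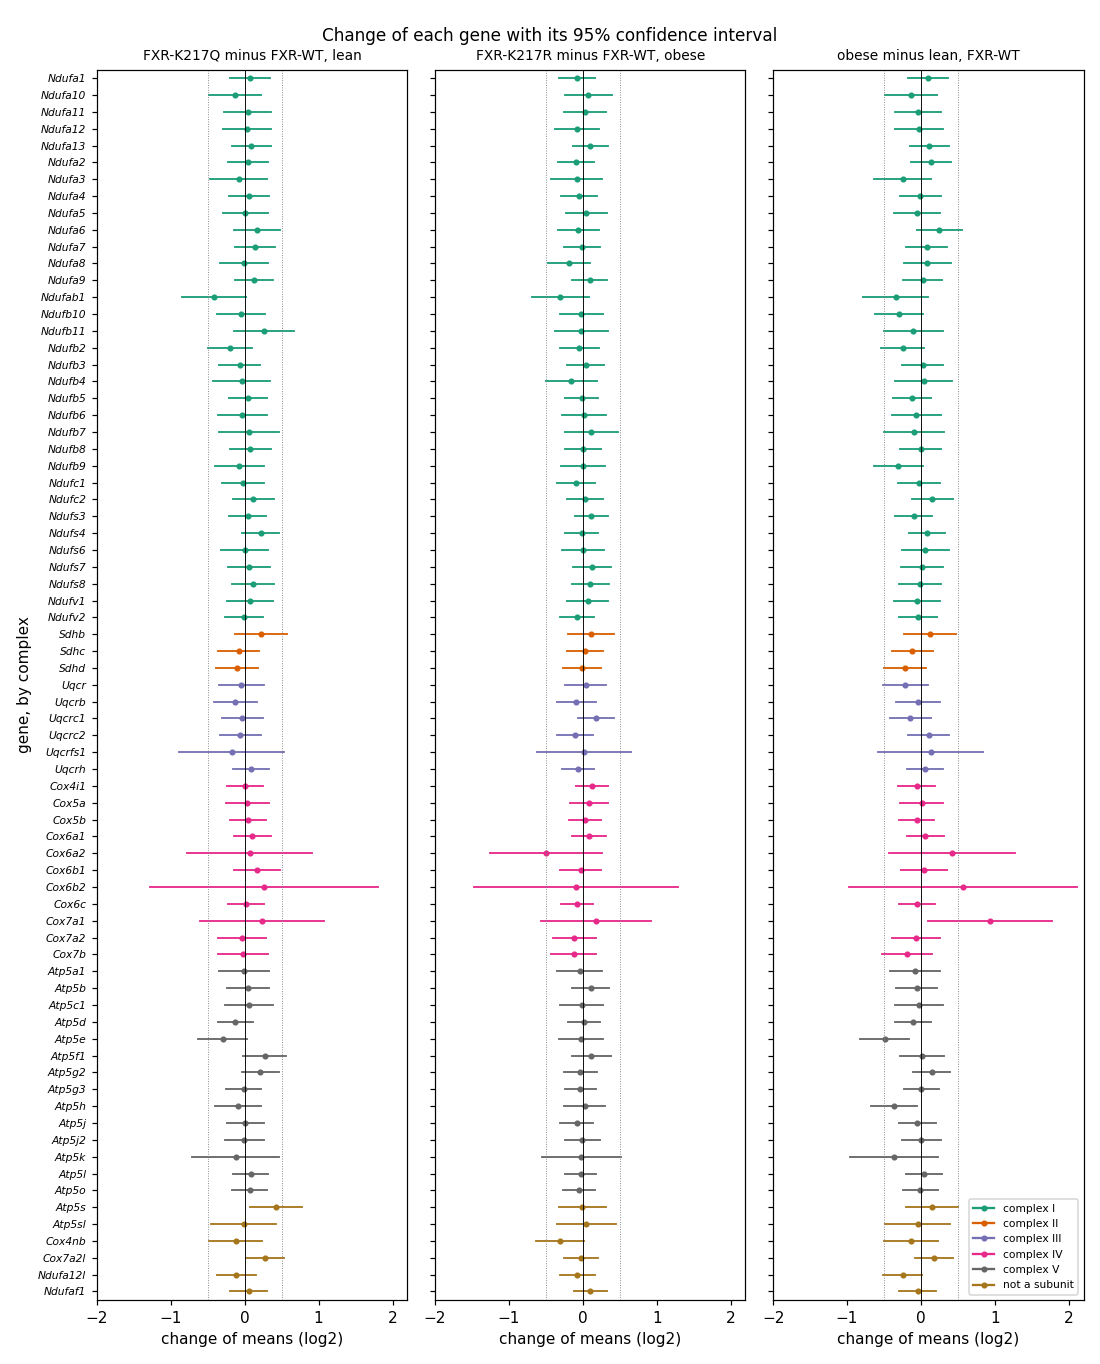
Points are differences of group means (log2) and lines their 95% confidence intervals in limma, for 73 genes ordered and coloured by complex, in 3 comparisons, with dotted lines at -0.5 and 0.5. Most intervals lie between the dotted lines, and the wide ones belong to the dim genes Cox6b2, Cox6a2, Cox7a1 and Uqcrfs1.

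The effects of both mutants were also tested against each other, although they come from lean and from obese livers. The FXR-K217R effect minus the FXR-K217Q effect had a median of -0.02 (all genes 0.005), and -0.11 (all genes -0.01) after median scaling, with 30 of 74 positive (40.5%, against 50.8%). It exceeded 0.5 in size for 1 gene (1.35%, against 9.88%), Cox6a2 (-0.56, 95% CI -1.70 to 0.57). For 40 of 74 genes the interval lay within 0.5 of 0, as for 2249 of 15469 genes tested. Of the 3543 genes with a mean log2 intensity of 10 or more, it did so for 1302. The highest value was that of Atp5e, 0.28 (95% CI -0.17 to 0.72, limma adjusted p = 1.00).

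On single arrays the median of all 74 genes, as a deviation from the mean of each gene, averaged -0.03 ± 0.03 in the 3 obese FXR-K217R livers and -0.02 ± 0.03 in the 3 obese FXR-WT livers. It averaged 0.04 ± 0.05 in the 3 lean FXR-K217Q livers and 0.01 ± 0.04 in the 2 lean FXR-WT livers (mean ± SD). Over the 11 arrays it ran from -0.05 to 0.08, and the SD between replicates, pooled over groups, was 0.0383. Complex III read lowest on lean FXR-K217Q replicate 3 (-0.18), the array on which Cox7a1 and Cox6b2 had their lowest values.

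**Figure D5:**
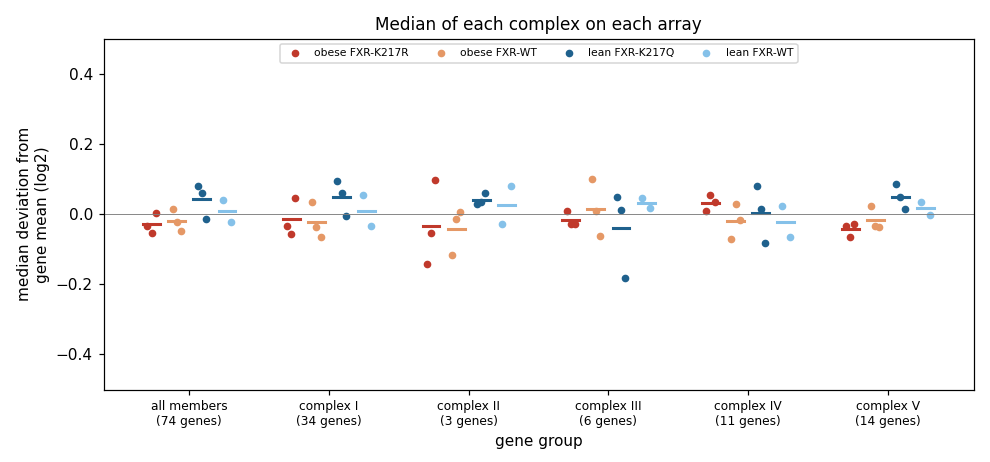
Points are the median deviations (log2) of the genes of each complex from their means over 11 arrays, 1 point per array, with bars at the group means. All points lie between -0.18 and 0.10, and the groups overlap in the median of all 74 genes.

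Other genes of the pathway gave the same count of calls. With limma, 0 members passed 5% FDR in any of the 3 comparisons among 8 subunits encoded by mitochondrial DNA, 21 assembly factors, 17 electron carriers and exchangers, 17 genes of the TCA cycle, 16 regulators of mitochondrial biogenesis and 68 proteins of the mitochondrial ribosome. In obese against lean FXR-WT livers 1, 3, 1, 2, 1 and 4 of them had an unadjusted p under 0.05, in that order, where 13.5% of all genes did. The medians there were 0.10 for subunits encoded by mitochondrial DNA, -0.05 for assembly factors, -0.07 for electron carriers, 0.02 for the TCA cycle, -0.09 for regulators of biogenesis and -0.07 for the mitochondrial ribosome. For FXR-K217Q they lay between -0.06 and 0.00, and for FXR-K217R between -0.05 and 0.05. Another 5 subunits or regulators of the complexes whose names fall outside the rule, Cyc1 and Atpif1 among them, had 0 members past 5% FDR and 0 with an unadjusted p under 0.05 in each comparison. The mitochondrial ribosome was as even as the complexes, with a median SD of 0.116.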

How the data were processed

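Liver RNA of 11 samples in 4 groups was measured on Illumina BeadChips. Per the file headers, the deposited table gives for every probe on an array the mean intensity of its beads, their count, the standard error and a p-value of detection. The authors also deposited normalized log2 values, in copies that are identical (largest difference 0). The submitters' processing notes name limma 3.12.3. Per the labels, biotinylated cRNA was hybridised. The software that summarised the beads and the genome build are not given in the sources used here.

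Background correction and quantile normalization used neqc (limma 3.58.1, R 4.3.3, offset 16), with background inferred from the detection p-values. The results differ from the authors' log2 values by 0.0271 at most. Of 45281 probes, 21485 passed the filter (detection p under 0.05 on at least 2 arrays). The probe with the highest mean stood for each gene, leaving 15469. Symbols were matched to the RefSeq gene table of GRCm38.p6, where 68 of the 74 were current and 6 renamed. Of the 74 genes, 24 had several probes, and the 30 further probes shared the sign in 17 (FXR-K217Q), 18 (FXR-K217R) and 20 (obesity) cases.

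One linear model per gene with a mean per group was fitted to all 11 arrays (lmFit, eBayes, 7 residual degrees of freedom, two-sided). P-values were adjusted by Benjamini-Hochberg over all genes in each comparison. A difference is one of mean log2 values. SDs within groups are over deviations from group means. The fit was tested on simulated data. Genes were named by rule: per comparison the 5 highest and 5 lowest differences and the smallest p of each complex, the 5 smallest p of the F test, the 5 smallest and 5 largest SDs, isoform families and non-subunits. Ndufs4, Atp5g2, Sdhc, Ndufb3, Ndufv2 and Atp5a1 are named outside this rule, in the comparisons where they appear, having been picked once their values were known. The genes, lists and tests were chosen with earlier results of these data known. Alternatives covered background correction, offset, scaling, detection filter, probe choice, the variance prior, array weights, the replicate number as a block and each array left out. Levels are not compared between probes. No columns were left without a sample (0). Of the 74 genes, 1 enters every count and median and is not reported here by name.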

Additional observations from a re-analysis of the deposited data

How the results depend on the processing

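Over 24 alternative settings, 0 of the 74 genes passed 5% FDR in any comparison, with smallest adjusted p-values in limma of 0.217 for FXR-K217Q, 0.748 for FXR-K217R, 0.0761 for obesity, 0.631 for the difference of both mutant effects and 0.102 for the F test. Over all genes the count of calls ran from 0 to 2, 2 to 10, 36 to 514, 0 to 1 and 76 to 407 in that order (0, 6, 185, 0 and 202 as reported). The count of oxidative phosphorylation genes with an unadjusted p under 0.05 ran from 0 to 7, 0 to 1, 1 to 8, 0 to 3 and 0 to 8. Scaling to array medians moved the median difference of the 74 genes to 0.10 (all genes 0.03) for FXR-K217Q, 0.0055 (all genes 0.04) for obesity and -0.11 (all genes -0.01) for the difference of mutant effects. Without 1 array at a time it ran from -0.0072 (without lean FXR-K217Q replicate 1) to 0.056 for FXR-K217Q and from -0.0652 (without lean FXR-WT replicate 1) to 0.0030 for the difference of mutant effects. The count of FXR-K217Q intervals within 0.5 of 0 ran from 36 to 61. Among single genes, the sign turned for Uqcrfs1, whose values lie largely in the background (0.20 without lean FXR-WT replicate 1, in a range from -0.55), for Cox6b2 in FXR-K217Q against FXR-WT (-0.34 and -0.01 without FXR-K217Q replicates 1 and 2, and -0.16 without lean FXR-WT replicate 2, in a range up to 1.14) and for Cox7a1 in FXR-K217R against FXR-WT (-0.0675 without FXR-K217R replicate 3, in a range up to 0.34). The cause was not tested. Without background correction the median SD of all genes was 0.109, beside 0.106 for the 74. Leaving out both arrays that stand apart, chosen after seeing the data, gave a median SD of 0.0967 for the 74 and 0.185 for all genes, and median differences of 0.06, 0.01 and -0.04. With the replicate number as a block 0 of the 74 genes were called, and their median differences were 0.04, -0.01 and -0.01. Over all genes 0, 3 and 102 were then called in these 3 comparisons. Deviations from the group means correlated at -0.388 to 0.234 between same-numbered samples and at -0.234 to 0.345 between differently numbered ones. Deviations within a group sum to 0 and so constrain each other. Whether the numbers pair the samples therefore could not be decided from these correlations. A block by slide was not run, since the files give no slide. With groups of 2 or 3 arrays, differences well under 0.5 could not be resolved for dim genes, and the limit reached further. Between obese and lean FXR-WT livers the dim Cox7a1 differed by 0.93 and the bright Atp5h (mean log2 intensity 12.55) by -0.37. Neither passed 5% FDR.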

Other observations

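Among the 8 subunits encoded by mitochondrial DNA, 5 spanned less than 0.5 log2 units over the 11 arrays and 3 more than 1. Of these 8, mt-Nd4l, a complex I subunit, had the smallest adjusted p between obese and lean FXR-WT livers, and it was chosen here after its values were seen. It read 10.89, 10.81 and 11.35 in obese FXR-K217R, 11.45, 10.56 and 10.78 in obese FXR-WT, 11.58, 12.04 and 11.94 in lean FXR-K217Q and 11.65 and 12.64 in lean FXR-WT livers. All 6 obese arrays lay below all 5 lean ones. The difference between obese and lean FXR-WT livers was -1.22 (95% CI -1.94 to -0.50), which did not pass in limma (adjusted p = 0.118). In the same comparison the other 7 differed by -0.04 (mt-Co2, 95% CI -0.29 to 0.21) to 0.28 (mt-Nd6, 95% CI -0.41 to 0.97), with limma adjusted p-values of 0.703 to 0.990.

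Ppargc1a, which encodes the coactivator PGC-1alpha that drives mitochondrial biogenesis, was likewise picked after its values were seen. It read 5.48, 5.59 and 6.27 in obese FXR-K217R, 6.33, 6.07 and 5.94 in obese FXR-WT, 5.43, 6.38 and 5.99 in lean FXR-K217Q and 6.60 and 6.63 in lean FXR-WT livers. Both lean FXR-WT arrays lay above the other 9, with differences of -0.68 for FXR-K217Q (95% CI -1.31 to -0.05, limma adjusted p = 0.641) and -0.50 for obesity (95% CI -1.13 to 0.13, adjusted p = 0.488). For FXR-K217R Ppargc1a differed by -0.34, the lowest of the 16 regulators. Its mean log2 intensity, 6.06, was the lowest of them as well, and the part of background in its values was not tested. Tfam (-0.03) and Esrra (-0.04), a further pair of regulators of mitochondrial genes, lay near 0 for FXR-K217Q. Ppara, a nuclear receptor that drives genes of fatty acid oxidation, lay the other way from Ppargc1a, with differences of 0.68 for FXR-K217Q (95% CI 0.26 to 1.11, limma adjusted p = 0.464) and 0.60 for obesity (95% CI 0.17 to 1.02, adjusted p = 0.202). These 2 were the lowest and the highest of the 16 regulators in both comparisons, and both lean FXR-WT arrays held the 2 lowest values of Ppara.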
